A study of Mus musculus with 2 samples.

Results

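The immediate-early-high microglia of library 2 are 624 cell barcodes of a droplet library of adult mouse hippocampus. They were chosen by their RNA counts. A barcode had to hold at least 1000 unique molecular identifiers (UMIs, each standing for 1 captured mRNA molecule) from no fewer than 500 genes, with mitochondrial transcripts making up 10% or less. It then had to pass 2 gates. P2ry12, Cx3cr1, Tmem119, Csf1r, Selplg and Gpr34, genes of brain microglia, together made up at least 0.5% of its UMIs, and so did the immediate early genes Fos, Jun, Junb, Egr1, Atf3 and Ier2. Of the 6448 barcodes of library 2, 2164 met the first 3 limits, 1565 of these passed the microglia gate and 624 passed both, which is 39.9% of the microglia-gate barcodes (exact binomial 95% interval 37.4 to 42.3%). The other 941 microglia-gate barcodes of library 2 are called immediate-early-low and are the group against which the 624 are set. In the whole series, with 18754 barcodes, the gates were also applied to library 1, where 6 of 841 microglia-gate barcodes (0.713%, 0.262 to 1.55%) passed both.

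Both libraries held hippocampal cells of wild-type male C57BL/6 mice aged 10 weeks, each loaded as a pool of 3 animals after a Percoll step that clears myelin and debris, and were made with the 10x Genomics 3' kit, version 3. The series sets dissociation by enzymes at 37 °C for 30 min against mechanical dissociation at 4 °C, and asks how enzymatic dissociation biases what is read from brain cells. Library 2 is numbered differently in its title and its files, and its deposited assignment was followed. No label says which library had which treatment, so neither is assigned to one here, and the values of library 1 stand beside those of library 2 without a comparison. Each library is a single pool, there are no replicates, and the 95% intervals cover counting error only.

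Microglia are the resident macrophages of the brain, and in the healthy tissue they carry receptors such as P2ry12 and Cx3cr1 that sense nucleotides and a neuronal chemokine. Immediate early genes are transcribed from promoters that need no new protein, so their mRNAs appear soon after a stimulus and decay quickly. Many encode transcription factors of the AP-1, EGR and ATF families, and others encode proteins that end the response again, such as phosphatases, inhibitors of NF-kB and proteins that destroy unstable mRNAs.

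The gate genes describe the rule and are not a result. In counts per 1000000 UMIs of the group (CPM), Jun stood at 6888 CPM in the immediate-early-high barcodes, 432 CPM in the immediate-early-low ones and 202 CPM in microglia-gate barcodes of library 1. In the same order Junb stood at 5444, 459 and 296 CPM, Fos at 3260, 37.0 and 11.9 CPM, and Egr1 at 2144, 50.2 and 38.1 CPM. Atf3 stood at 1263, 30.9 and 31.9 CPM and Ier2 at 1204, 24.5 and 27.6 CPM. The median barcode of the immediate-early-high group gave 1.72% of its UMIs to these 6 genes (0.502 to 6.35%), that of the immediate-early-low group 0.0531%, and 143 of the 941 immediate-early-low barcodes held none of them. The 0.5% limit cuts through a continuous range and does not part 2 cell types. Just inside it, 37 barcodes lay between 0.5 and 0.6%, with Zfp36 at 1276 CPM, Btg2 at 1173 CPM and Ccl4 at 636 CPM. Just outside, 43 lay between 0.4 and 0.5%, with 1145, 782 and 1182 CPM of the same genes.

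**Figure D1:**
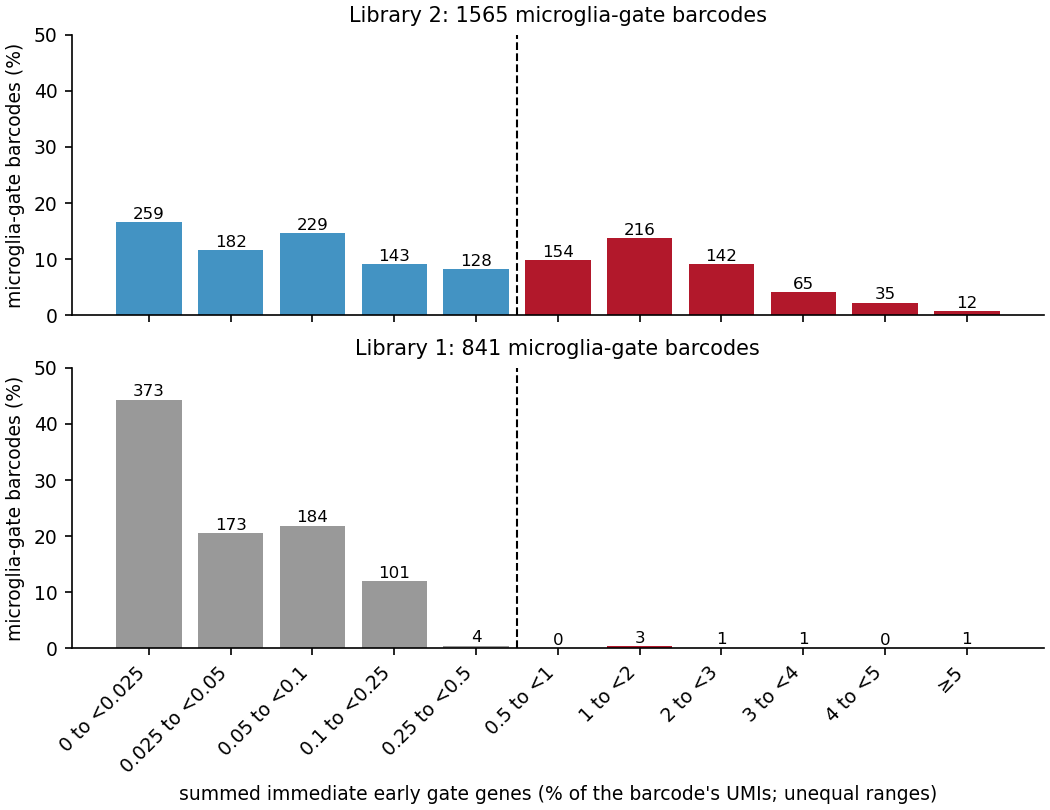
Share of microglia-gate barcodes by the summed immediate early gate genes (percent of a barcode's UMIs, in ranges of unequal width), for library 2 above and library 1 below; numbers over the bars are barcodes and the dashed line is the 0.5% limit. In library 2 the barcodes run on across the limit, with 128 just below it and 154 just above; in library 1 only 6 of 841 lie above it.

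The defining markers of microglia were present. All 6 microglia gate genes, which chose the barcodes, were high in the immediate-early-high barcodes, from 1730 CPM for Tmem119 to 4476 CPM for Cx3cr1, against 1696 and 4882 CPM in the immediate-early-low ones, and the 522 barcodes of library 2 with under 0.1% of these genes held at most 32.4 CPM of any of them. The 6 genes summed to 17730 CPM in the immediate-early-high and 19372 CPM in the immediate-early-low barcodes, a ratio of 0.915 (0.907 to 0.923). The 522 barcodes are called outside the microglia gate below, which leaves out barcodes with 0.1 to 0.5% of these genes. Markers of other cells were low. Of the border-associated macrophage markers, which summed to 233 CPM in the immediate-early-high and 366 CPM in the immediate-early-low barcodes, most was Stab1 (222 and 294 CPM), a scavenger receptor gene. Monocyte markers summed to 8.80 and 21.01 CPM, T and NK cell markers to 0.409 and 0.695 CPM, pericyte markers to 21.3 and 127 CPM and endothelial markers to 128 and 160 CPM. Neuron markers summed to 140 and 181 CPM, oligodendrocyte markers to 154 and 265 CPM, astrocyte markers to 301 and 440 CPM and neutrophil markers to 229 and 275 CPM. The highest sums were those of choroid plexus markers, 1527 and 2114 CPM, nearly all of it Ttr, and of erythrocyte markers, 1112 and 5243 CPM. In the barcodes outside the microglia gate these 2 lists reached 15874 and 15532 CPM. Barcodes in which markers of all other classes reached 1% of UMIs numbered 11 of 624 (1.76%) in the immediate-early-high and 69 of 941 (7.33%) in the immediate-early-low group.

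The immediate-early-high barcodes were deeper than the others, with a median of 7522 UMIs and 2626 genes, against 6034 UMIs and 2499 genes in the immediate-early-low group and 2313 UMIs and 1346 genes in microglia-gate barcodes of library 1. Their median mitochondrial share was 5.09%, against 4.55% and 2.41%. In all they held 4884863 UMIs, and the immediate-early-low group 5758153. A further 138 barcodes of library 2 passed both gates but lay over the mitochondrial limit. Library 2 as a whole held 29356086 UMIs with a median mitochondrial share of 13.3%, and library 1 18783691 UMIs with 1.76%. The 2 libraries share 19 barcode sequences, of which 3 are among the 624.

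Promoters of 4 genes described below are shown, from the feedback, NF-kB and cytokine groups, because each holds a match to a motif of the factors that immediate early signalling is known to use. The windows are the 250 bases before the RefSeq start site on build GRCm38.p6, written along the gene's strand, and capitals mark matches. Btg2, a feedback gene (chr1:134079156-134079405, minus strand), holds the CRE motif TGACGTCA. Nfkbia, the NF-kB inhibitor gene (chr12:55492648-55492897, minus strand), holds a match to the kB motif. Cxcl10, a chemokine gene (chr5:92348890-92349139, minus strand), holds 3 kB matches, of which 2 overlap each other, and 1 match to the AP-1 motif TGANTCA. Il1a, the interleukin-1 alpha gene (chr2:129309973-129310222, minus strand), holds 1 AP-1 match.
Btg2: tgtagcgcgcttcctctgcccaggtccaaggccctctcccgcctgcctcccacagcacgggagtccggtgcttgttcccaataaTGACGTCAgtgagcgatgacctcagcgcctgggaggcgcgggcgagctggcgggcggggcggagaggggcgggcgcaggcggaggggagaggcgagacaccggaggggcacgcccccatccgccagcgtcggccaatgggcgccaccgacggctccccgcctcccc
Nfkbia: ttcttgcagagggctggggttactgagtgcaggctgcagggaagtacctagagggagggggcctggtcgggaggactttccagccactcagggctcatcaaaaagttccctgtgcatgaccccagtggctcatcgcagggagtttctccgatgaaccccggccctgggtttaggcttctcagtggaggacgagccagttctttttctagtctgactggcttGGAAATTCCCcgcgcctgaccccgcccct
Cxcl10: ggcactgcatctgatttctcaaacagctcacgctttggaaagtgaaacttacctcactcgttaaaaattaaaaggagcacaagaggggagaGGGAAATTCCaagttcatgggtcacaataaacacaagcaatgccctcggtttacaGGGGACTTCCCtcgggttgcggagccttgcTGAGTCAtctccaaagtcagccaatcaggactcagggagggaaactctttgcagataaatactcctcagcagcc
Il1a: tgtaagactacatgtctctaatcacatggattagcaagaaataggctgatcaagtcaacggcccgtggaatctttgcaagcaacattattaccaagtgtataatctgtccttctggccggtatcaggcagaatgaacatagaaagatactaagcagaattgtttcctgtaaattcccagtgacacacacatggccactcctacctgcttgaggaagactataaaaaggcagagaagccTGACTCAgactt

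Searched on both strands, the kB motif was found in 7.25% of all 32851 RefSeq windows of this length, the AP-1 motif in 6.75%, the CRE motif in 1.55% and the CArG box of serum response factor in 1.47%. The kB and CArG motifs allow several letters at some positions and are given by name. In the windows shown, no match overlaps one of another motif. Of the 91 genes described next, 61 had a window, and 17 held a kB match, 4 an AP-1 match, 4 a CRE and 3 a CArG box. Among 2708 compared genes with a window these shares were 11.0, 4.99, 3.58 and 1.44%. A match is a string of letters and says nothing of binding.

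Beyond the 12 gate genes, the immediate-early-high microglia held more mRNA of a small set of genes and levels within the limits used here of most others. Of 3483 genes with at least 50 CPM in either group, 91 stood at 2 or more times their immediate-early-low level, which is 2.61% of those compared, and 21 (0.603%) at 0.5 times or less. The same UMIs chose the barcodes, so these are descriptions and carry no test. Without the barcodes in which other classes' markers reached 1% of UMIs, 89 genes were past 2 times and 13 at 0.5 times or less, and without the shared barcode sequences 92 and 21. In 47 genes the ratio was 4 or more and in 25 it was 10 or more. Of the 91, 48 stood under 50 CPM in the immediate-early-low group and were compared only because of their level in the immediate-early-high one. The filter favours high ratios in such genes, and the list counts and medians below include them. The median log2 ratio of all compared genes was -0.17, and with every ratio divided by that median 105 genes were past 2. Ranked by the interval bound nearest to 1, the genes with the highest ratios were Cxcl10, Fosb, Tnf, Dusp1, Socs3, Ier3, Il1b, Egr2, Egr3, Nfkbiz, Gadd45b and Gem.

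**Figure D2:**
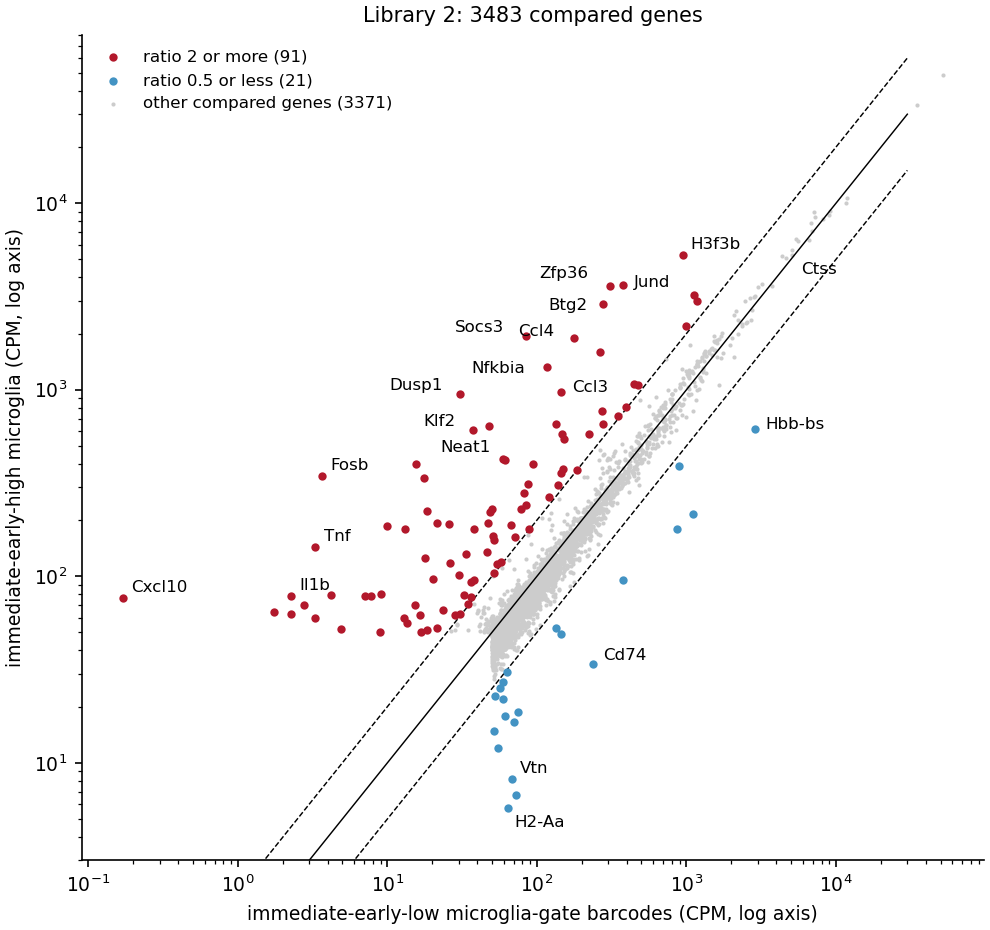
Level of each of the 3483 compared genes (CPM, both axes logarithmic) in immediate-early-high microglia (vertical) and immediate-early-low microglia-gate barcodes (horizontal) of library 2; the solid line marks equal levels and the dashed lines ratios of 2 and 0.5. The 91 red points include Dusp1, Socs3, Zfp36 and Ccl4, the 21 blue points include the haemoglobin gene Hbb-bs and the antigen presentation genes H2-Aa and Cd74, and Cxcl10, with no UMI in the immediate-early-low group, is drawn at the left edge.

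Early transcription factor genes outside the gate stood far above the immediate-early-low level. Of 20 listed, 11 were compared, 9 were past 2 times and none was below 0.5, with a median log2 ratio of 3.27. Genes such as Fosb, Egr2, Egr3 and Nr4a1 were compared only through their immediate-early-high level, which favours a high count and median. Jund, the third JUN gene of AP-1 (chromosome 8), had 3627 CPM (3573 to 3680) in immediate-early-high, 376 CPM (361 to 392) in immediate-early-low and 222 CPM in library 1 microglia-gate barcodes, a ratio of 9.64 within library 2 (9.22 to 10.1). Fosb, a FOS family gene (ENSMUSG00000003545, chromosome 7, 19302696 to 19310051), had 344 CPM against 3.65 CPM, a ratio of 94.2 (61.5 to 153), and 2.38 CPM in library 1. In the immediate-early-low and library 1 barcodes Fosb was nearly absent, while the 522 barcodes outside the microglia gate held 253 CPM. Egr2 and Egr3, zinc finger genes related to Egr1, stood at 64.7 and 63.1 CPM against 1.74 and 2.26 CPM, and the orphan receptor gene Nr4a1 at 60.0 against 3.30 CPM.

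Among the Krüppel-like factor genes, Klf6 had 659 CPM in immediate-early-high and 134 CPM in immediate-early-low barcodes, a ratio of 4.91 (4.54 to 5.32). Klf2, known best from vessel walls, had 610 against 37.3 CPM (16.3, 14.2 to 18.9), and Klf4 118 against 26.1 CPM. Both were also found in other cells of library 2. The barcodes outside the microglia gate held 1786 CPM of Klf2 and 513 CPM of Klf4, and at 1000 UMIs per barcode Klf2 was seen in 22.1% of the immediate-early-high, 2.34% of the immediate-early-low and 31.0% of the outside barcodes. Cebpb, a C/EBP factor gene of inflammatory macrophages, stood at 774 against 271 CPM (2.85, 2.69 to 3.03), and its relative Cebpd at 341 against 216 CPM, under the limit.

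Feedback genes, whose products shorten mRNAs or stop kinase and cytokine signals, gave the highest summed level of the response lists, 12578 CPM (12479 to 12678) in immediate-early-high and 2469 CPM (2429 to 2510) in immediate-early-low barcodes, with 1405 CPM in library 1. Of 12 listed, 9 were compared, 6 were past 2 times and none was below 0.5. Dusp1 was compared only through its immediate-early-high level. Zfp36 encodes tristetraprolin, which binds AU-rich cytokine mRNAs and speeds their decay (ENSMUSG00000044786, chromosome 7, 28376784 to 28380253). It had 3591 CPM (3538 to 3645) in immediate-early-high, 308 CPM (294 to 323) in immediate-early-low and 45.3 CPM in library 1 barcodes, a ratio of 11.6 (11.1 to 12.2). Btg2, an anti-proliferative gene whose product recruits the deadenylase complex, had 2888 against 277 CPM (10.4, 9.91 to 11.0). Socs3, which blocks JAK-STAT signals, had 1932 against 84.2 CPM (22.9, 20.9 to 25.2). Dusp1, a phosphatase gene that turns off MAP kinases (chromosome 17, 26505590 to 26562128), had 948 against 30.6 CPM (31.0, 26.7 to 36.3). The relatives Zfp36l1 and Btg1 stood at 2.42 and 2.23 times, while Zfp36l2 (565 against 474 CPM), Dusp6 (457 against 328 CPM) and Trib1 were under the limit.

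Of 12 listed NF-kB genes 7 were compared and 4 were past 2 times, all of them genes of inhibitors or nuclear IkB proteins. Of these, Nfkbiz, Tnfaip3 and Nfkbid were compared only through their immediate-early-high level, which favours a high count. Over all compared genes 2.61% were past 2 times. Nfkbia, the gene of the inhibitor IkB-alpha, had 1326 CPM (1294 to 1359) against 116 CPM (108 to 125), a ratio of 11.4 (10.5 to 12.4). Nfkbiz, a nuclear member of the IkB family, had 335 against 17.5 CPM (19.1, 15.6 to 23.6), and Tnfaip3, which encodes the ubiquitin-editing enzyme A20, 194 against 21.4 CPM (9.08, 7.51 to 11.0). Nfkbid, another nuclear IkB gene, stood at 125 against 17.7 CPM. The 3 compared subunit genes were within the limits, with Nfkb1 at 140 against 157 CPM (0.891, 0.806 to 0.986), Rel at 90.5 against 97.8 CPM and Rela at 60.0 against 57.0 CPM. The subunit gene Relb stood at 30.5 against 10.9 CPM, a ratio of 2.79 (2.06 to 3.80), but was under the level needed to be compared. Nfkbia was also found outside the microglia gate, at 849 CPM.

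Chemokine, cytokine and activation genes summed to 5122 CPM (5059 to 5186) in immediate-early-high, 1178 CPM (1150 to 1207) in immediate-early-low, 972 CPM in library 1 and 655 CPM in outside barcodes. Of 20 listed, 14 were compared and 11 were past 2 times. Genes such as Tnf, Il1a, Il1b, Cxcl10, Ccl2 and Ccl12 were compared only through their immediate-early-high level, which favours a high count. Ccl4 (ENSMUSG00000018930, chromosome 11, 83662584 to 83664683) and its neighbour Ccl3 encode chemokines that attract leukocytes. Ccl4 had 1888 CPM (1850 to 1927) against 178 CPM (167 to 189), a ratio of 10.6 (9.94 to 11.3), and Ccl3 976 against 146 CPM (6.70, 6.22 to 7.21). Ccl12 and Ccl2, ligands of CCR2, had 178 and 79.2 CPM against 38.2 and 4.17 CPM. Ccl9, a further chemokine gene, stood at 168 against 167 CPM.

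Tumour necrosis factor (Tnf) had 144 CPM (133 to 155) in immediate-early-high and 3.30 CPM (1.99 to 5.15) in immediate-early-low barcodes, a ratio of 43.6 (27.7 to 72.8). The interleukin gene Il1a had 220 against 48.3 CPM (4.55, 3.99 to 5.21), and Il1b 78.6 against 2.26 CPM (34.8, 20.1 to 66.0). Cxcl10, a chemokine gene of the interferon and NF-kB pathways, had 76.6 CPM against no UMI at all, so at least 147-fold higher when 3 counts are allowed for the immediate-early-low group as a whole, and with an exact interval of the ratio that begins at 119. The adhesion molecule gene Icam1 had 401 against 93.4 CPM (4.29, 3.90 to 4.73), the activation antigen gene Cd83 228 against 50.4 CPM, and the lipopolysaccharide co-receptor gene Cd14 510 against 368 CPM, under the limit. Of 14 listed interferon response genes only Bst2 and Ifitm3 were compared, at 130 and 40.9 CPM in immediate-early-high and 153 and 52.8 CPM in immediate-early-low barcodes.

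Stress and signalling genes gave 12 compared of 17, with 10 past 2 times, against 2.61% of all compared genes. Genes such as Ier3, Ppp1r15a, Gadd45b and Gem were compared only through their immediate-early-high level, which favours a high count. Rhob, a small GTPase gene, had 2985 against 1173 CPM (2.55, 2.47 to 2.62), and Ier5, an immediate early gene that acts with heat shock factor, 1599 against 264 CPM (6.06, 5.74 to 6.41). Ier3, a survival gene, had 401 against 15.6 CPM (25.6, 20.8 to 32.0), and 797 CPM outside the microglia gate. Ppp1r15a, whose product reverses the block on translation set by stress kinases, had 179 against 13.03 CPM (13.8, 10.9 to 17.7). The growth arrest gene Gadd45b had 70.0 against 2.78 CPM, and Gem, a small GTPase gene that limits calcium entry, 186 against 9.90 CPM. Mcl1, an anti-apoptotic gene, was past the limit at 659 against 278 CPM, whereas Txnip (879 against 492 CPM) and Rgs2 (823 against 564 CPM) were not.

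**Figure D3:**
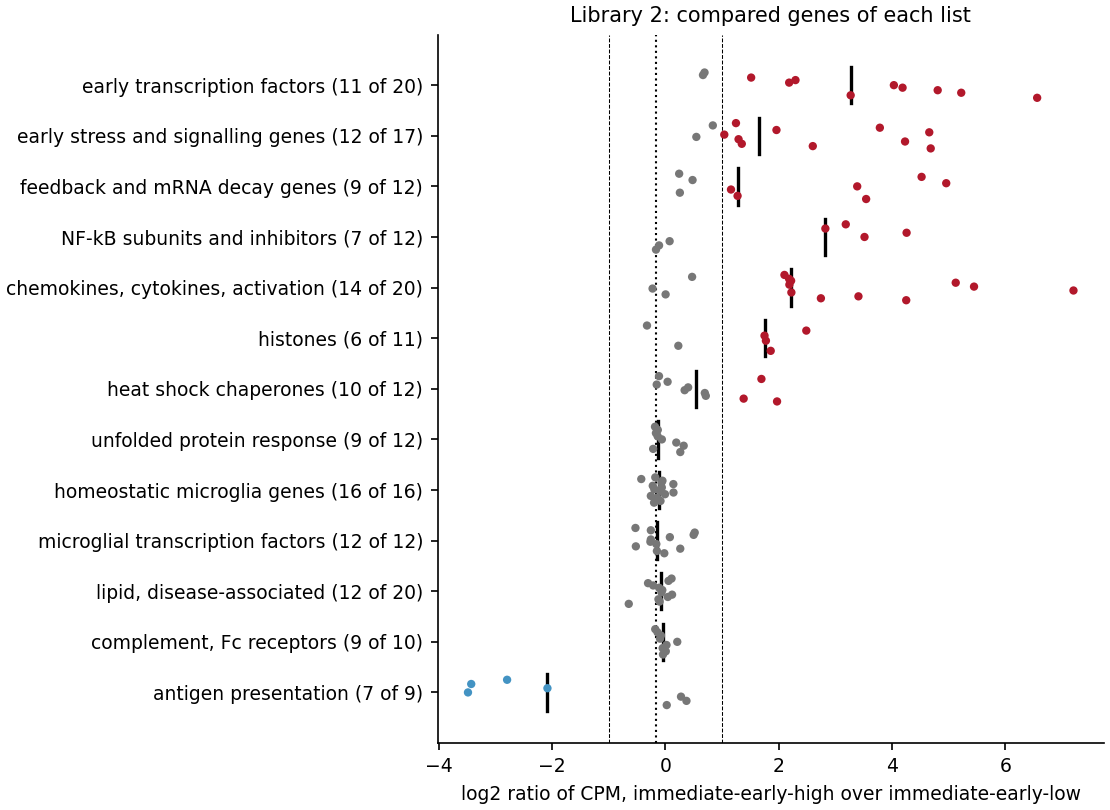
Log2 ratio of CPM (immediate-early-high over immediate-early-low) for each compared gene of 13 lists, with the number compared of those listed; short vertical bars are list medians, the dotted line is the median of all compared genes (-0.17), dashed lines mark ratios of 2 and 0.5, and Cxcl10 is drawn at its lower bound. The lists of early response genes lie right of the dashed line in most members, the microglial identity lists lie around the dotted line, and 4 genes of antigen presentation lie far to the left. Genes compared only through their immediate-early-high level are included, which favours points on the right.

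Some histone genes stood above the immediate-early-low level and others did not. H3f3b, which encodes the replacement histone H3.3, had 5270 CPM (5206 to 5335) against 941 CPM (916 to 966), a ratio of 5.60 (5.44 to 5.77), and 806 CPM in library 1. The linker histone genes Hist1h1c, Hist1h1e and H1f0 had 546, 278 and 102 CPM against 151, 81.5 and 30.2 CPM. Hist1h2bc (221 against 189 CPM) and the variant gene H2afz (248 against 310 CPM) were not past the limit. That made 4 of 6 compared genes, of 11 listed, with H1f0 compared only through its immediate-early-high level.

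Of 12 heat shock genes, 10 were compared and Hspa1a, Hspa1b and Dnajb1 were past 2 times. Hspa1a and Hspa1b are near-identical neighbours on chromosome 17 that can share reads, so they are not told apart with certainty. They had 580 and 578 CPM in immediate-early-high, 148 and 222 CPM in immediate-early-low and 6.19 and 4.29 CPM in library 1 barcodes. Dnajb1, the co-chaperone gene that works with them, had 165 against 51.1 CPM (3.24, 2.83 to 3.71). Hsp90aa1, the inducible HSP90 gene, stood at 454 against 280 CPM (1.62, 1.52 to 1.73), under the limit. The constitutive chaperone genes Hspa8 (1738 against 1060 CPM) and Hsp90ab1 (1259 against 995 CPM) were also under it, and the mitochondrial chaperone gene Hspd1 stood at 97.4 against 108 CPM. Barcodes outside the microglia gate held 386 CPM of Hspa1a and 7106 CPM of the list, against 5514 CPM in the immediate-early-high group. None of the 9 compared genes of the unfolded protein response, out of 12, was past either limit. Hspa5, the chaperone gene that reports this response, stood at 742 against 593 CPM, and Calr at 696 against 763 CPM. Ddit3, its death-linked factor, stood at 37.3 against 38.7 CPM, under the level needed to be compared.

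Genes of microglial identity stayed within the limits used here, with list sums slightly lower in the immediate-early-high group. All 16 homeostatic genes outside the gate were compared and none was past a limit. They summed to 71373 CPM in immediate-early-high, 75184 CPM in immediate-early-low and 76960 CPM in library 1 barcodes, with a median log2 ratio of -0.11. In library 2 most of this sum was the single gene Cst3. The nucleotide receptor gene P2ry13 had a ratio of 0.906 (0.861 to 0.952), and the lectin gene Siglech one of 0.870 (0.844 to 0.897). The 12 microglial transcription factor genes ranged from Etv1 at 0.693 and Maf at 0.697 to Runx1 at 1.41 and Cebpa at 1.43 times, and Spi1, which encodes PU.1, stood at 0.987 (0.922 to 1.06). Of the lipid handling and disease-associated genes 12 of 20 were compared and none passed, with Trem2 at 0.932 and Apoe, which astrocytes also make, at 0.639 (0.617 to 0.661). The complement genes C1qa, C1qb and C1qc stood between 0.967 and 1.01. Ribosomal protein genes, 80 compared, had a median log2 ratio of 0.20 with none past a limit.

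Of the 21 genes at 0.5 times or less, those with the lowest ratios included class II antigen presentation genes, haemoglobin genes and Vtn, whose UMIs lay in few barcodes. H2-Aa, a class II chain gene, had 5.73 CPM (3.81 to 8.28) in immediate-early-high and 64.1 CPM (57.7 to 71.0) in immediate-early-low barcodes, H2-Eb1 6.76 against 72.6 CPM and Cd74, the invariant chain gene, 34.0 against 235 CPM. In the immediate-early-low group every UMI of Cd74 lay in 10% of the barcodes. With the microglia gate at 1% in place of 0.5%, which left 881 of the 941 barcodes, the ratio of H2-Aa was 1.67 and that of Cd74 1.09. The 4 haemoglobin genes, whose reads can be shared within the alpha and beta pairs, were all below 0.5 times. Erythrocyte markers were over 0.5% of UMIs in 1 immediate-early-high and 6 immediate-early-low barcodes, with 49.8 and 65.4% in the highest barcode of either group, and the median barcodes held 0.0277 and 0.0314%. Hbb-bs stood at 0.214 times, at 3.10 with that gate and at 0.893 without the barcodes rich in other classes' markers. Class I genes, which nearly all cells use, were within the limits, with B2m at 1.02 (0.983 to 1.05), H2-D1 at 1.21 (1.14 to 1.29) and H2-K1 at 1.29 (1.21 to 1.39).

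Vtn and Ptn, genes of pericytes and of glia, stood at 0.121 and 0.249 times, and at 0.771 and 1.33 without the barcodes in which markers of other classes reached 1% of UMIs, an alternative added after seeing the data. The lower level of 2 further genes was kept in all 15 alternatives. Snhg20, a small nucleolar RNA host gene, had 12.1 CPM against 54.5 CPM (0.221, 0.165 to 0.293), and 132 CPM in library 1, with ratios from 0.188 to 0.305. Zfp322a, a zinc finger gene, had 14.7 against 51.8 CPM (0.285, 0.217 to 0.370), with ratios from 0.215 to 0.338.

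Non-coding genes made up 16 of the 91. Their share of the 3483 compared genes was not counted, so whether this is many or few is not known. Neat1, the RNA scaffold of nuclear paraspeckles (chromosome 19, 5824708 to 5845478), had 427 CPM (409 to 446) against 59.4 CPM (53.3 to 66.0), a ratio of 7.20 (6.42 to 8.09), and 109 CPM in library 1. Malat1, its abundant nuclear neighbour, had a ratio of 0.963. Gm26532, a long intergenic RNA gene on chromosome 8 (84208920 to 84209609), had 636 against 48.1 CPM (13.2, 11.7 to 15.0). Of the 16, 9 overlap a protein-coding gene, some on the same strand and some on the opposite one. The sources used here do not say how strand was counted. How far their reads mix with those of the partner was not tested. Gm26669 is one of the 9 and overlaps Zfp36l1, itself among the 91, on the opposite strand.

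The 624 barcodes differed among themselves along the gate sum. In ranges of under 0.25, 0.25 to 0.5, 0.5 to 1, 1 to 2, 2 to 3 and at least 3% of UMIs, the microglia-gate barcodes of library 2 numbered 813, 128, 154, 216, 142 and 112. From low to high, the early transcription factor list summed to 1039, 1983, 3128, 5320, 8449 and 12104 CPM and the feedback list to 2125, 4556, 6772, 10292, 15232 and 20405 CPM. NF-kB genes summed to 538 and 606 CPM in the ranges below the limit and to 871, 1672, 2870 and 4782 CPM in those above it. Homeostatic genes gave 74867 CPM in the lowest and 65773 CPM in the highest range, of which Cst3 alone gave 51561 and 44528 CPM. The gate gene P2ry12 gave 3433 and 2572 CPM in the same 2 ranges. Median depth was 6032 UMIs in the lowest, 8089 UMIs in the range of 2 to 3% and 7648 UMIs in the highest range, and after thinning to 1000 UMIs the number of genes past 2 times was again 91.

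Single genes took different shapes along these ranges. Ccl4 stood at 65.3 CPM in the lowest range and at 862 CPM already between 0.25 and 0.5%, then at 1077, 2016, 2157 and 2270 CPM. Ccl3 was at 54.6, 698, 657, 1029, 1210 and 960 CPM, so for both genes the largest step as a fold lay between the 2 lowest ranges, below the limit that defines the immediate-early-high group. Hist1h1c had 113, 379, 676, 547, 480 and 473 CPM, and Hspa1b 158, 610, 590, 676, 666 and 274 CPM. Nfkbiz, Fosb and Il1a rose in every further range. Nfkbiz had 15.8, 28.2, 48.0, 168, 422 and 877 CPM, and Il1a 47.3, 54.0, 85.8, 132, 217 and 544 CPM. Fosb had 2.43, 11.0, 38.8, 136, 376 and 1050 CPM. For Fosb the largest step as a fold again lay between the 2 lowest ranges. The same held for Dusp1 (11.9 and 144 CPM there), Socs3 (48.1 and 303 CPM) and Tnf (1.42 and 14.7 CPM), but not for Nfkbiz and Il1a. With the immediate-early-low group held to under 0.25%, the ratios of Ccl4, Ccl3, Dusp1, Tnf, Socs3 and Zfp36 were 28.9, 17.9, 79.4, 101, 40.1 and 18.0. Those of Egr2, Egr3, Fosb and Nfkbid were 160, 156, 142 and 12.1, against 37.3, 27.9, 94.2 and 7.07 with the whole immediate-early-low group.

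**Figure D4:**
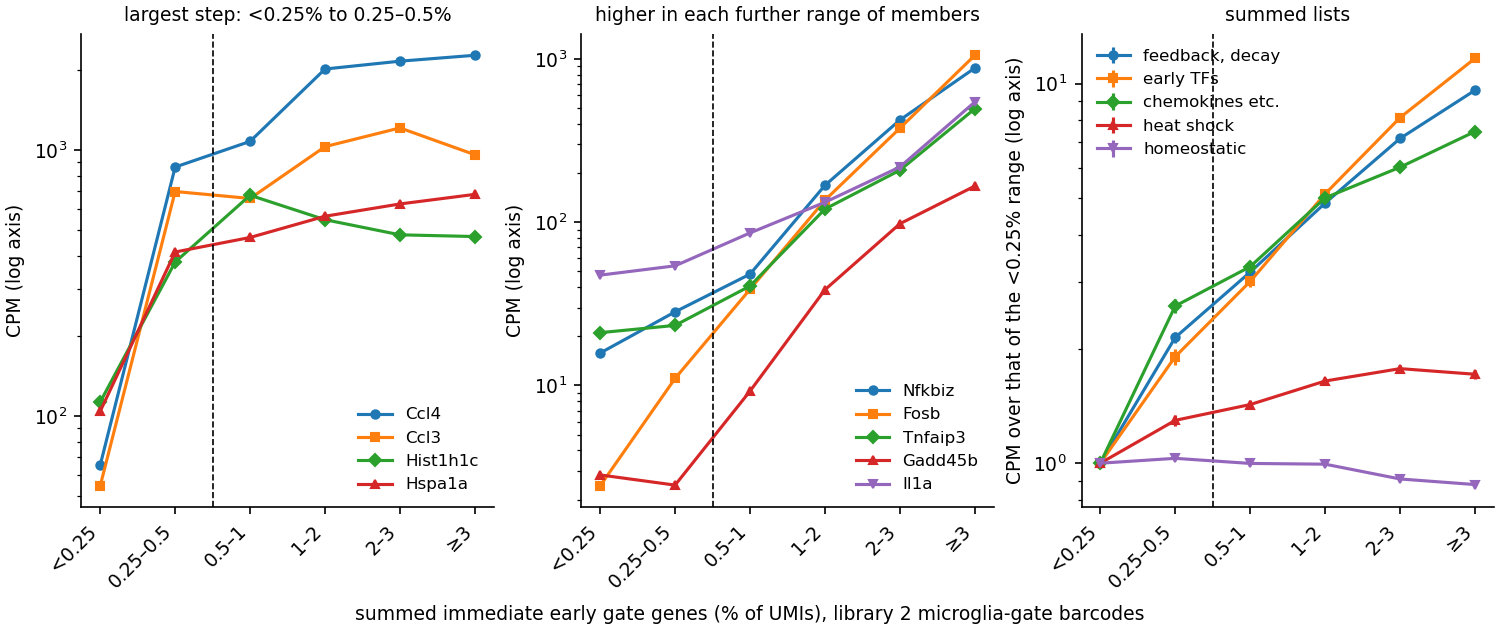
Levels across ranges of the summed immediate early gate genes (percent of UMIs) in microglia-gate barcodes of library 2: CPM of 4 genes (left) and 5 genes (middle), and list sums relative to the lowest range (right), on logarithmic axes; the dashed line is the 0.5% limit and bars on the right are 95% counting intervals. Ccl4 and Ccl3 reach 862 and 698 CPM below the limit, whereas Nfkbiz and Fosb stand at 28.2 and 11.0 CPM there and at 877 and 1050 CPM in the top range.

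Over the 624 barcodes, Spearman's rho between the gate sum and the share of a list was 0.81 for feedback genes, 0.77 for early transcription factors, 0.68 for NF-kB genes, 0.62 for stress genes and 0.47 for histones. For chemokines it was 0.39 and for heat shock genes 0.10, and with UMIs per barcode and mitochondrial share it was 0.15 and 0.02. For homeostatic genes outside the gate it was -0.21 and for the microglia gate genes -0.18. All these shares come from the same barcodes and depths, and are given as a description. Most of the histone share was H3f3b, and most of the homeostatic share was Cst3. From the range of 0.5 to 1% to that of at least 3%, H3f3b went from 2607 to 8586 CPM and H1f0 from 60.0 to 174 CPM. Hist1h1e stood at 270 and 285 CPM there, while Hist1h1c went from 676 to 473 CPM and Hist1h2bc from 380 to 153 CPM.

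At 1000 UMIs per barcode, some genes were seen in nearly every immediate-early-high barcode and others in a part of them. Zfp36 was found in 89.9% (99.0% unthinned), against 21.4% (54.7% unthinned) of the immediate-early-low and 13.03% of the outside barcodes. Socs3 was found in 66.0, 6.91 and 8.43% of the same groups and Dusp1 in 38.3, 1.70 and 14.0%. Ccl4 was found in 46.3% (63.5% unthinned), 5.74% (13.5% unthinned) and 2.11%, and Ccl3 in 35.3, 6.48 and 1.15%. Tnf reached 8.49, 0.213 and 0.383%. The outside barcodes hold other cell types and free RNA, with a median of 5798 UMIs.

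Cytokine UMIs were unevenly spread over the 624 barcodes. The top 10% of barcodes held 24.4% of the Zfp36 UMIs, 46.2% of those of Ccl4, 53.0% of those of Ccl3, 80.9% of those of Ccl12 and 82.2% of those of Tnf. For the gate gene P2ry12 the top 10% of barcodes held 21.1%. Ccl2 was seen in 8.17% of the 624 barcodes, Il1b in 5.93% and Cxcl10 in 3.53%, so their group levels describe a small number of cells. After thinning, Ccl3 was seen in 52.6% (46.7 to 58.5%) of the 289 barcodes with Ccl4 and in 20.3% (16.1 to 25.01%) of the 335 without. Tnf was seen in 10.4% (7.11 to 14.5%) of the first and 6.87% (4.40 to 10.1%) of the second, intervals that overlap. Socs3 was seen in 72.3% (66.8 to 77.4%) and 60.6% (55.1 to 65.9%), Hspa1a in 21.5 and 19.7%, and the homeostatic gene P2ry13 in 47.4 and 47.8%.

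**Figure D5:**
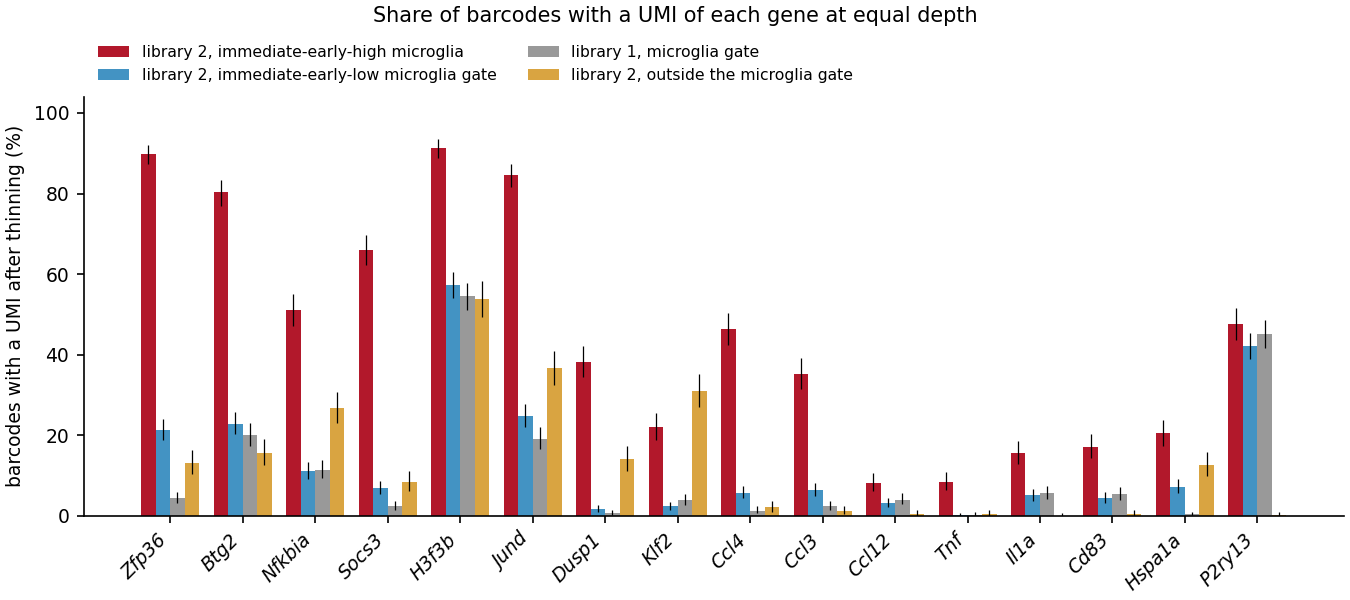
Share of barcodes with at least 1 UMI of each gene after thinning to 1000 UMIs, for immediate-early-high and immediate-early-low microglia of library 2, library 1 microglia-gate barcodes and library 2 barcodes outside the microglia gate; bars carry exact 95% binomial intervals that cover counting error only. Zfp36 reaches 89.9% in the first group and 21.4% in the second, Klf2 is highest outside the microglia gate at 31.0%, and P2ry13 stands at 47.6, 42.2 and 45.1% in the 3 microglial groups. The outside barcodes are those with under 0.1% of the microglia gate genes.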

How the data were processed

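The values deposited by the authors are UMI counts, whole and not normalized, for 41605 genes in each barcode. Per the submitters' processing notes they come from Cell Ranger 3.0.1 and build GRCm38.p5, and earlier filters are not given in the sources used here. No column was left out. The members, gene lists and named-gene rule were chosen with earlier results of these data known. The named genes are the gates, up to 6 per list with the highest CPM in the 624 barcodes, and the 12 highest and 12 lowest ratios, ranked by the interval bound nearest to 1. Genes with at least 50 CPM in either group were compared, and past 2 or 0.5 times was the limit. UMIs were summed over barcodes, since cells are not replicates, and there is no test. Intervals are exact at 95% (Poisson, conditional binomial and Clopper-Pearson; scipy 1.17.1, Python 3.11.15) and cover counting error only. A count of 0 is read as allowing 3. Ratios and intervals were checked on simulated data. Scrublet in scanpy 1.11.5 marked 0 barcodes of library 2 by its automatic threshold, so doublets were kept in, and an alternative removed the 5.158% with the highest scores, 22 of the 624 among them. Coordinates are from GENCODE M21, which held 3481 of the 3483 compared gene IDs, and promoter windows from RefSeq. Alternatives were other limits on UMIs, mitochondrial share and gates, doublets, barcode weighting, thinning, filter and ratio. Added after the data had been seen were: leaving out barcodes rich in other classes' markers or shared between libraries, an immediate-early-low group under 0.25%, at least 5000 UMIs, and scaling to the median ratio.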

Additional observations from a re-analysis of the deposited data

How the results depend on the processing

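The 91 genes past 2 times numbered 86 to 129 across the 15 alternatives. The 21 at or below 0.5 were 13 with the microglia gate at 1%, 13 without barcodes rich in other classes' markers, 12 with the mean of per-barcode shares, 58 after thinning, 71 from 20 CPM on and 125 at a ratio of 1.5. Heat shock genes past the limit were 5 at that ratio, against 3. The 624 barcodes were 303 at a mitochondrial limit of 5%, and their share of the microglia gate was 35.2% there, 30.0% with the immediate early gate at 1% and 44.6% with at least 5000 UMIs. Directions turned under the microglia gate at 1%, with ratios of 1.68 for H2-Ab1, 1.67 for H2-Aa, 2.88 for H2-Eb1, 1.09 for Cd74, 2.43 for Hbb-bt, 3.10 for Hbb-bs, 3.48 for Hba-a1 and 3.51 for Hba-a2. The median log2 ratio of the antigen presentation list was 0.35 there and 0.089 with the mean of per-barcode shares. Ptn was at 1.31 with the mitochondrial limit of 5% and 1.33 without barcodes rich in other classes' markers. The cause was not tested. All genes named by the rule given above that were past 2 times stayed past it wherever a ratio could be formed. For Cxcl10 that was 1 of the 15 alternatives. Further genes mentioned in the text but not named by that rule are not covered by this statement. No paired analysis was possible because each library is 1 pool of animals and no label gives a group. With 1 library, differences between animals or preparations are not measured. Genes under 50 CPM in both groups were not compared, which left lists such as cell cycle, monocyte and endothelial genes with sums only.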

Other observations

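Some genes of the 91 lie outside every list and are named here after their values were seen. Kctd12, a subunit gene of GABA-B receptors, had 2203 CPM in immediate-early-high and 985 CPM in immediate-early-low barcodes, a ratio of 2.24 (2.17 to 2.31). Id2, which encodes an inhibitor of DNA-binding factors, stood at 420 against 61.5 CPM (6.84, 6.10 to 7.67). The chemerin-binding receptor gene Ccrl2 had 224 against 18.4 CPM (12.1, 9.94 to 15.0), the fatty acid receptor gene Gpr84 311 against 86.7 CPM and the lysosomal transporter gene Slc15a3 374 against 149 CPM. The metalloprotease gene Adamts1 had 191 against 25.7 CPM, and 95.4 CPM outside the microglia gate. The top 10% of the immediate-early-high barcodes held 85.5% of its UMIs, so its group level describes few cells. Gpr84 and Slc15a3 were nearly absent outside the microglia gate, at 0.736 and 4.41 CPM. Below 0.5 times, the splicing-linked genes Rsrp1 and Rbmx had 390 and 17.8 CPM against 887 and 60.8 CPM.

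The 6 barcodes of library 1 that passed both gates held 15725 UMIs in all. They had 7886 CPM of early transcription factor genes (6559 to 9402), 10239 CPM of feedback genes (8718 to 11948) and 12019 CPM of chemokine and activation genes (10367 to 13860). The 835 other microglia-gate barcodes of library 1 had 825, 1338 and 889 CPM of the same lists.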
